A study of Mus musculus with 6 samples.

Results

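The collagens, laminins, matrix metalloproteinases and their tissue inhibitors, together with fibronectin, the nidogens and perlecan, were described in the posterior part of Fkbp8 null and wild-type mouse embryos. A gene was taken where the platform annotation gave its probe a collagen chain symbol (Col), a laminin chain symbol (Lama, Lamb, Lamc), a metalloproteinase symbol (Mmp) or a tissue inhibitor symbol (Timp), or where it was Fn1, Nid1, Nid2 or Hspg2. The rule found 78 genes on 95 spots, of 18069 named genes on 34967 transcript spots. By class they were 11 fibrillar collagens, 8 basement membrane collagens, 10 laminin chains, 3 nidogens and perlecan, Fn1, 22 other collagens, 19 metalloproteinases and 4 tissue inhibitors.

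The series held 3 samples from Fkbp8 null embryos (numbers 6, 9 and 11) and 3 from wild-type embryos (numbers 7, 10 and 12). All 6 came from a mixed C57BL/6 and 129S5/SvEvBrd stock at embryonic day 9.5, with a stated average of 21.6 somite pairs, and no treatment is given for either genotype. The tissue was the part of the embryo below the forelimb pit, which holds the open posterior neuropore. The tissue label reads posterior neural tube and the source label reads anterior neural tube, while the dissection protocol and the series title describe the posterior part. Total RNA was amplified and hybridised to 1-colour CodeLink arrays, so the values are brightness of a probe on a log2 scale, in which 1 unit is a doubling. The labels do not say how the null allele was made, nor whether a sample was 1 embryo or several pooled, so the p-values measure the spread between these samples only. In tissue of mixed cell types, fewer cells of a type and less RNA per cell cannot be told apart.

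Fibrillar collagens are triple-helical proteins that assemble into the load-bearing fibres of mesenchyme. Basement membranes are thin sheets under epithelia and around the neural tube, built of laminin and type IV collagen networks that nidogens and perlecan bridge, and fibronectin forms the early matrix around somites. Metalloproteinases cut these proteins and activate growth factors, and the TIMP proteins block them by binding their active site.

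The targeted gene was read first. Fkbp8, a membrane-anchored immunophilin that restrains hedgehog signalling in the mouse neural tube, had background-subtracted intensities of 24.7, 28.9 and 35.7 on the null arrays, against 123, 183 and 486 on the wild-type arrays. The probe was near background on all 3 null arrays and above it on all 3 wild-type arrays, at least 3.33-fold lower in null (log2 difference -1.77 ± 0.23 SE, limma adjusted p = 0.409). Between 63.3% and 69.2% of spots per array lay above background. The number of arrays limits the precision. Wild-type sample 10 stood apart in sex-linked genes: Xist, the RNA that coats the inactive X chromosome, was at 10.34 there, against 5.98 to 6.53 on the other 5 arrays, and Eif2s3y, a Y-linked gene, was at 6.16 there, against 8.63 to 8.91 on the others. Timp1, Col4a5 and Col4a6 are the X-linked genes described here. Without wild-type 10, 5 of the tested genes had an unadjusted limma p under 0.05, against 4 with all arrays. Timp3, Nid1, Col23a1 and Col3a1 were higher in null and Lama5 was lower. The share over all genes without that array is not given, so the count is not read as a result about these genes. Without wild-type 10 the differences were 0.72 for Timp3, 0.24 for Timp4, 0.40 for Nid1 and 0.37 for Col23a1.

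Most of these matrix genes gave a signal in the posterior embryo, while few of the proteases did so on every array. Of the 78 genes, 43 were above the scanner software's near-background flag on all 6 arrays, 22 on some and 13 on none. A gene was tested where its probe cleared that flag on all 3 arrays of a genotype and each genotype kept 2 or more usable spots. That left 48 of 78 genes (61.5%), against 12532 of 18069 named genes (69.4%). The metalloproteinases had the lowest share, with 7 of 19 tested (36.8%). Mmp9, Mmp10, Mmp12, Mmp24 and Mmp28 were near background on every array, among them the gelatinase Mmp9 and the macrophage elastase Mmp12. The laminins had 5 of 10 tested, with Lama2 and Lama4 near background throughout. All 4 TIMPs, both nidogens, perlecan and Fn1 were tested.

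**Figure D1:**
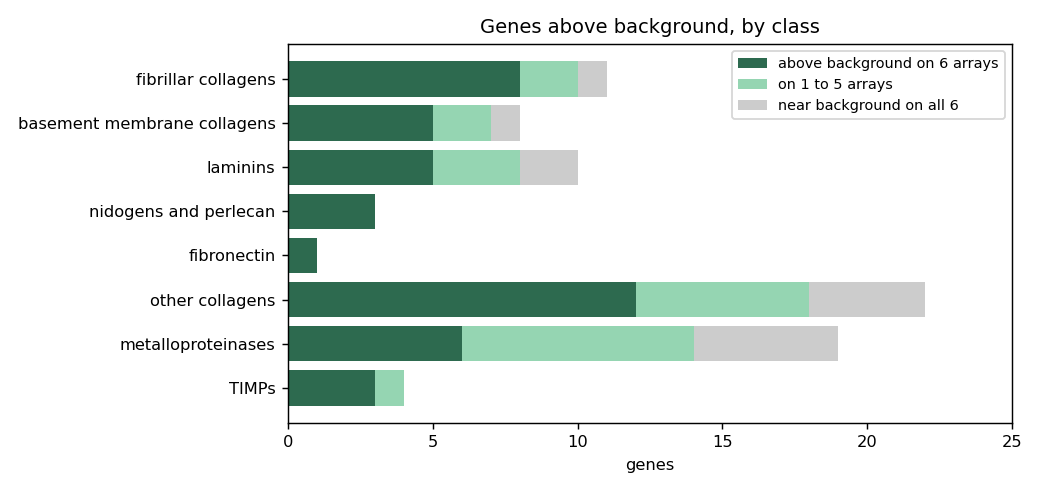
Number of genes (horizontal axis) in each class by the number of arrays on which the probe was above the near-background flag: all 6, 1 to 5, or none. The metalloproteinases have 6 of 19 genes above background on all 6 arrays, while the 3 nidogens and perlecan and Fn1 are above it on every array.

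No matrix, protease or inhibitor gene passed the test between genotypes. By limma, with p-values adjusted by Benjamini-Hochberg over every probe in the fit, 0 of 48 had an adjusted p under 0.05, against 1 of 12532 genes (0.00798%), and all 48 had an adjusted p of 0.9999. At an unadjusted p under 0.05, 4 of 48 (8.33%) were higher in null: Timp3, Timp4, Nid1 and Col23a1. The same share over all genes was 239 of 12532 (1.91%). None of the 48 was lower in null at that level, against 162 of 12532 genes (1.29%). The count of 4 became 1 without null 9, 2 without null 11 and 2 with median scaling in place of quantile normalization. It was 3 where a probe had to be above background on all 6 arrays. That filter left out Timp4, whose probe was above background on 3 of 3 null and 1 of 3 wild-type arrays. The shares over all genes under these settings are not given. Timp4 thus entered the main test only through the null arrays, where it was higher, so its place among the 4 is not support for a difference. With each array left out in turn, the single direction held except without wild-type 7 or wild-type 10. Without wild-type 7, 3 of 6 genes with an unadjusted limma p under 0.05 were higher in null (Timp3, Timp4 and Col27a1). The other 3 were lower (Col1a1, Col2a1 and Col4a6). Without wild-type 10, 4 were higher and 1 (Lama5) was lower. The groups of 3 did not overlap, with null higher, for Timp3, Timp4, Col23a1 and Lama1. That is 4 of the 45 genes measured on all 6 arrays (8.89%), against 592 of 11884 genes (4.98%). Timp4 is in this count too only through the null arrays. With null lower, the groups did not overlap for Lama3, 1 of 45 (2.22%), against 448 of 11884 (3.77%). With median scaling 3 genes in all had groups that did not overlap, and with the software's normalized intensity 2. For these 2 settings the share over all genes was not counted. In all, 28 of 48 differences were above 0 (58.3%), against 53.5% of all genes, and the median difference was 0.04 for these genes, against 0.01 for all genes.

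**Figure D2:**
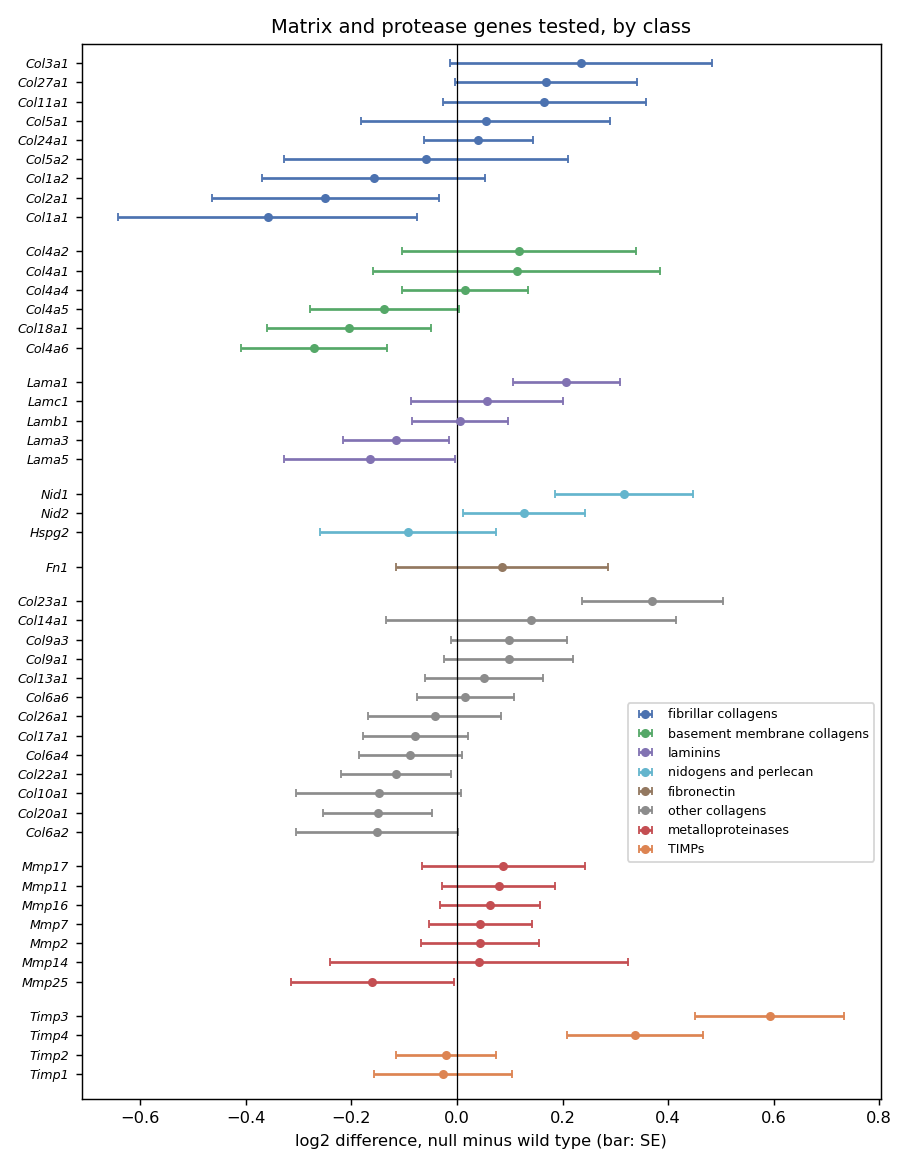
Log2 difference, null minus wild type (horizontal axis; point, fitted difference; bar, its SE), of the 48 tested genes by class. Timp3 at 0.59 lies farthest to the right and Col1a1 at -0.36 farthest to the left, and genes of every class with over 1 member lie on both sides of 0.

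The TIMP class held the largest difference among the tested genes, that of Timp3. Timp3, a matrix-bound inhibitor that also blocks ADAM sheddases and VEGF receptor binding, was at 8.61, 8.78 and 8.47 in null samples 6, 9 and 11, against 7.84, 8.29 and 7.96 in wild-type samples 7, 10 and 12. All 3 null samples lay above all 3 wild-type samples, and the means were 8.62 ± 0.15 in null and 8.03 ± 0.23 in wild type (SD, n = 3 each). The difference was 0.59 ± 0.14 (SE). Timp4, an inhibitor best known from the adult heart, was at 6.60, 6.95 and 6.76 in null, against 6.55, 6.24 and 6.51 in wild type. Its groups did not overlap either, but the closest null and wild-type samples were 0.05 apart, and its probe was above background on 3 of 3 null and 1 of 3 wild-type arrays. The difference was 0.34 ± 0.13, and it was 0.72 with the scanner software's normalized intensity, where dim probes carry no offset.

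The other two inhibitors showed overlapping groups. Timp1, an inhibitor that also acts as a growth factor for blood cell precursors, was at 7.50, 7.66 and 7.60 in null, against 7.39, 7.85 and 7.59 in wild type. The highest and the lowest value were both wild type, with the highest in sample 10, the sample with Xist signal; the part of that sample's sex-linked pattern was not tested. The Timp1 difference was -0.03 ± 0.13, and 0.09 without wild-type 10. Timp2, which both inhibits and helps activate the gelatinase Mmp2, was at 6.77, 6.75 and 6.91 in null, against 6.85, 6.85 and 6.79 in wild type, a difference of -0.02 ± 0.09. The class as a whole had 2 genes with a difference above 0 and 2 below, with a median of 0.16, against 0.01 for all genes.

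**Figure D3:**
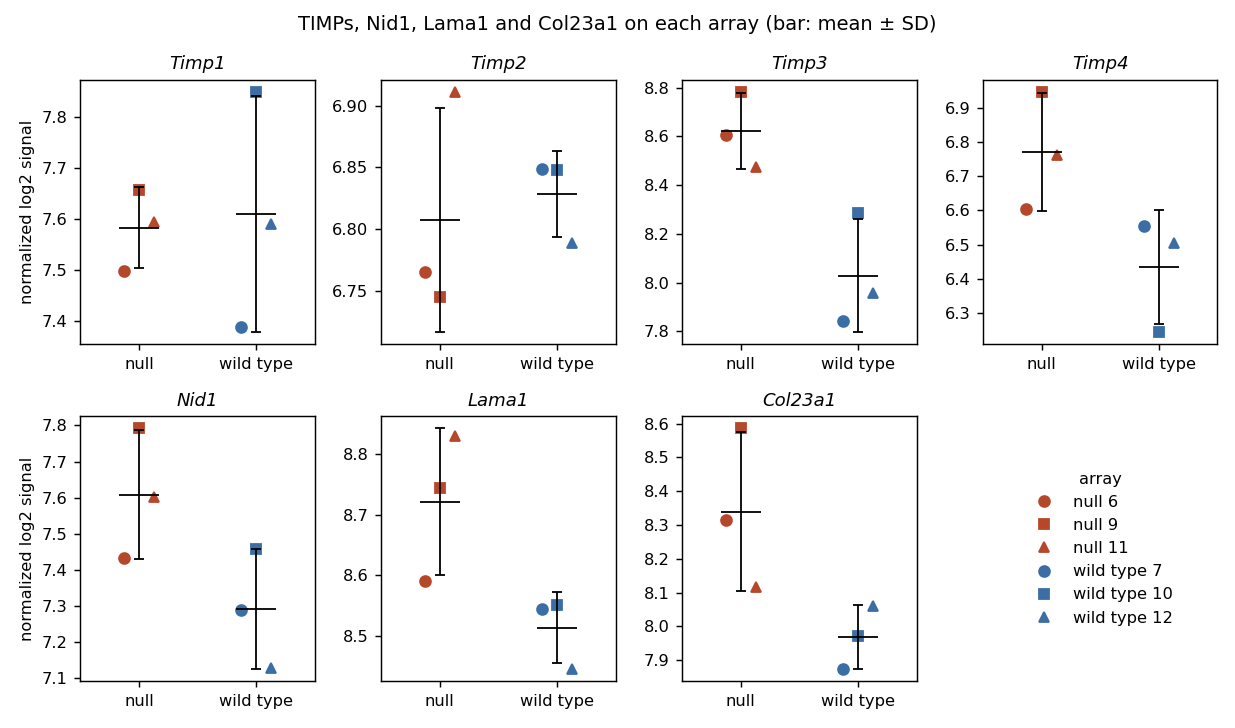
Normalized log2 signal (vertical axis, its own scale in each panel) of the 4 TIMPs, Nid1, Lama1 and Col23a1 on each array, null left and wild type right; points are arrays and bars the mean ± SD of 3. The groups do not overlap for Timp3, Timp4, Lama1 and Col23a1, while null 6 of Nid1 at 7.43 lies below wild-type 10 at 7.46.

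Promoter sequences are shown for the 4 genes with an unadjusted p under 0.05, all higher in null, a choice made after their values were seen. Each is the 250 bases before the start of the gene in the RefSeq annotation of GRCm38.p6, read 5′ to 3′ on the gene's strand. Timp3 is at chr10:86300162-86300411 on the plus strand, Timp4 at chr6:115252206-115252455 on the minus strand, Nid1 at chr13:13437352-13437601 on the plus strand and Col23a1 at chr11:51289670-51289919 on the plus strand. Capitals mark any of 4 motifs that were searched on both strands. The CCAAT box is named by its letters. The GC box, bound by zinc finger activators, was spelled GGGCGG. The TATA box, which positions the polymerase, was spelled TATAAA. The Gli site, bound by the hedgehog effectors, was spelled GACCACCCA.
Timp3: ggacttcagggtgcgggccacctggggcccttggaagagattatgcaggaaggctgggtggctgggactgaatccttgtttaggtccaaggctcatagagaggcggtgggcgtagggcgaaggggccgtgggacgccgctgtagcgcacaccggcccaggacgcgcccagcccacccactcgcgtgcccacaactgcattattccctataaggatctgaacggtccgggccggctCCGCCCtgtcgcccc
Timp4: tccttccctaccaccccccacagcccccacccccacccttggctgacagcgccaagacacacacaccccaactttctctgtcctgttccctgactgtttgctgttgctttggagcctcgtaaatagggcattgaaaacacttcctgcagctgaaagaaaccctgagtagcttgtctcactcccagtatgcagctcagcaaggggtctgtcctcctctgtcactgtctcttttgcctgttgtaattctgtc
Nid1: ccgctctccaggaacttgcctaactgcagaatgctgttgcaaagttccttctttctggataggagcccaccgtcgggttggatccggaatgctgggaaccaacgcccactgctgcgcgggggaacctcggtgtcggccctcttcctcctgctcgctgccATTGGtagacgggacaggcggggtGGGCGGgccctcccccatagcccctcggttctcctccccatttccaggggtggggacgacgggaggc
Col23a1: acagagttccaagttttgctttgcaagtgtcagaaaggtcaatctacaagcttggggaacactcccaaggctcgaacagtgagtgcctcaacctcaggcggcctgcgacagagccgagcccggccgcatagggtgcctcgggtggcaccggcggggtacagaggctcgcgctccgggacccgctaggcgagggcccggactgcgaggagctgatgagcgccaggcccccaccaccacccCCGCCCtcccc
The Timp3 and Col23a1 promoters hold a GC box each, Nid1 holds a GC box and a CCAAT box, and the Timp4 window holds none of the 4 motifs. Of the 78 genes, 58 had an entry in the RefSeq promoter table, with 65 promoters among them. A GC box was in 50.8% of these, against 32.7% of all 32851 promoters, and a CCAAT box in 30.8%, against 33.8%. The TATA box was in 16.9% of the 65 promoters, against 12.4% of all, and was held by Mmp3, Mmp7, Mmp10, Mmp13, Mmp20 and Mmp21 among the metalloproteinases. The Gli site was in 0 of 65, against 0.225% of all promoters. These letter matches describe the windows and say nothing of binding.

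The differences of the tested metalloproteinases lay between -0.16 and 0.09. Mmp14, the membrane-anchored protease that cuts collagen and activates Mmp2, was at 10.73, 10.12 and 10.15 in null, against 10.36, 9.69 and 10.83 in wild type. Wild type held both the highest and the lowest sample, and the difference was 0.04 ± 0.28. Mmp2, the gelatinase of mesenchyme, was at 8.96, 9.25 and 8.94 in null, against 8.98, 9.04 and 9.00 in wild type, a difference of 0.04 ± 0.11. The other tested members ran from -0.16 ± 0.15 for Mmp25, a lipid-anchored protease of leukocytes, to 0.09 ± 0.15 for Mmp17, another lipid-anchored protease, whose spot in wild-type 12 was left out. Mmp11, known as stromelysin and active around remodelling epithelia, differed by 0.08 ± 0.11, and Mmp16, a membrane-anchored activator of Mmp2, by 0.06 ± 0.09. Of the 7 tested, 6 had a difference above 0 and 1 below, with a median of 0.04, and none had an unadjusted p under 0.05.

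Among the untested proteases, 1 array stood far from the rest. Mmp3, the stromelysin that cuts many matrix proteins, was at 6.28, 6.47 and 9.33 in null, against 6.37, 6.19 and 5.91 in wild type. The value in null 11 corresponds to an intensity of 644, while the others ran from 9.98 to 40.2. The probe was above background on 2 of 3 null and 0 of 3 wild-type arrays, so it was not tested. Mmp3 was singled out after its values were seen. Mmp8, the neutrophil collagenase, and Mmp13, the collagenase of bone, stayed between 5.99 and 6.72 on all arrays. The macrophage and leukocyte markers, from cells that could carry such proteases, had 0 of 10 genes tested. Their summed level was 237 to 280 intensity units in null and 157 to 265 in wild type, and Ptprc, C1qa, Fcgr1, Itgam and Mpo were near background on all arrays.

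The basement membrane genes did not shift together. Joined over type IV and related collagens, laminins, nidogens and perlecan, 14 of 21 were tested, with 8 differences above 0, 6 below and a median of 0.01. Nid1, the linker between laminin and type IV collagen, was at 7.43, 7.79 and 7.60 in null, against 7.29, 7.46 and 7.13 in wild type. The highest wild-type sample lay 0.03 above the lowest null sample. The difference was 0.32 ± 0.13, with means of 7.61 ± 0.18 in null and 7.29 ± 0.17 in wild type (SD, n = 3 each). Nid2, its paralogue, was at 9.72, 9.95 and 9.87 in null, against 9.80, 9.54 and 9.82 in wild type, which overlap (0.13 ± 0.12). Hspg2, which encodes perlecan, the large heparan sulphate proteoglycan, was at 7.39, 7.51 and 7.13 in null, against 7.21, 7.33 and 7.77 in wild type, a difference of -0.09 ± 0.17.

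Among the laminins, the 2 chains whose groups did not overlap lay on opposite sides. Lama1, the alpha chain of the first embryonic laminin, was at 8.59, 8.74 and 8.83 in null, against 8.54, 8.55 and 8.45 in wild type. The closest samples of the 2 genotypes were 0.04 apart, and the difference was 0.21 ± 0.10. A second, dimmer Lama1 probe gave 0.09 ± 0.13 with overlapping groups. Lama3, the alpha chain of the laminin that anchors surface epithelium, was at 8.96, 8.77 and 8.96 in null, against 8.97, 9.10 and 8.97 in wild type. The Lama3 groups were 0.0086 apart, and the difference was -0.11 ± 0.10. Lama5, the alpha chain of later basement membranes, was at 9.74, 9.42 and 9.61 in null, against 10.02, 9.43 and 9.82 in wild type, a difference of -0.16 ± 0.16. The shared chains Lamb1 and Lamc1 differed by 0.01 ± 0.09 and 0.06 ± 0.14, the second fitted without null 11, whose spot was left out. Lamb3, the partner chain of Lama3, was untested and was at 8.19 in null 6, against 6.39 and 6.61 in the other null samples and 6.39 to 6.83 in wild type, as noticed after the values were seen.

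The paired type IV chains Col4a1 and Col4a2 varied more between samples of a genotype than between the genotypes. Col4a1, a chain of the ubiquitous type IV network, was at 8.90, 9.11 and 8.25 in null, against 8.54, 8.24 and 9.14 in wild type, a difference of 0.11 ± 0.27. Its partner Col4a2 was at 8.07, 8.34 and 7.66 in null, against 7.64, 7.75 and 8.33 in wild type, a difference of 0.12 ± 0.22. Null 9 and wild-type 12 were the 2 highest samples for both chains. The X-linked chains Col4a5 and Col4a6, which form a network of their own, differed by -0.14 ± 0.14 and -0.27 ± 0.14. Col4a6 was at 6.93, 6.84 and 6.72 in null, against 6.90, 7.02 and 7.38 in wild type, and only null 6 lay above a wild-type sample. Col4a5 was highest in wild-type 10 at 6.95, against 6.41 to 6.73 in null and 6.51 and 6.76 in the other wild-type samples. Without wild-type 10 the differences were -0.03 for Col4a5 and -0.31 for Col4a6, and the part of that sample's sex-linked pattern was not tested. Col18a1, whose cleaved end is the angiogenesis inhibitor endostatin, was at 8.90, 8.76 and 8.75 in null, against 8.93, 8.75 and 9.35 in wild type, a difference of -0.20 ± 0.16.

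Most markers of the epithelium that rests on these membranes had a difference below 0, and none passed the adjusted threshold. The surface ectoderm list had 12 of 13 tested genes below 0, against 5832 of 12532 genes, with a median of -0.21. Of the 13, 3 were lower in null at an unadjusted p under 0.05, against 1.29% of all genes. Its summed level was 2810 to 2977 intensity units in null and 3326 to 3926 in wild type, with none of the 13 near background on all arrays. Epcam was the brightest gene of the list on every array and weighs most in that sum. Krt8 was at 9.73 in wild-type 12, against 7.78 and 8.03 in wild-type 7 and 10, and the Krt5 spot of wild-type 12 was left out. The sum thus does not stand for the whole list. Lama3 and Lama5, laminin chains of epithelia, also had differences below 0, and the part of the ectoderm markers in these differences was not tested. The endothelium list, a further source of basement membrane, had 6 of 11 differences above 0 and a summed level of 3228 to 3666 in null and 3216 to 3559 in wild type.

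The fibrillar collagens spread widely between samples and had no common direction. Of 11 genes 9 were tested, with 5 differences above 0, 4 below and a median of 0.04. Col3a1, the collagen of soft and embryonic mesenchyme and the brightest probe of the class, was at 12.12, 12.45 and 12.04 in null, against 11.47, 12.54 and 11.89 in wild type. Both extremes were wild type, and the difference was 0.24 ± 0.25. Col1a1, the main chain of type I collagen, was at 7.67, 7.50 and 7.01 in null, against 7.23, 7.66 and 8.36 in wild type. Wild-type 12 alone lay above all null samples, and the difference was -0.36 ± 0.28. It was -0.05 without wild-type 12, the smallest size when each array was left out in turn. Col1a2, its partner chain, was at 7.96, 8.03 and 7.52 in null, against 7.56, 8.11 and 8.31 in wild type, a difference of -0.16 ± 0.21.

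The remaining fibrillar chains also overlapped. Col2a1, the collagen of cartilage and of the notochord sheath, was at 6.36, 6.81 and 6.81 in null, against 6.50, 6.89 and 7.34 in wild type, a difference of -0.25 ± 0.22. Col5a1 and Col5a2, which set the thickness of type I fibres, differed by 0.05 ± 0.24 and -0.06 ± 0.27. Col5a2 was at 9.88, 9.95 and 9.77 in null, against 9.41, 10.63 and 9.74 in wild type, so that the null samples lay within the range of the wild type. Col11a1 and Col27a1, collagens of the later cartilage, differed by 0.17 ± 0.19 and 0.17 ± 0.17. A second, dimmer Col27a1 probe gave 0.03 ± 0.11. The somite and sclerotome markers, from the tissue that makes much of this matrix, had 11 of 13 differences above 0, against 53.5% of all genes. Their median was 0.24, against 0.01 for all genes. At an unadjusted limma p under 0.05, 1 of the 13 was higher in null, against 1.91% of all genes. Their summed level was 6917 to 8297 in null and 3778 to 8135 in wild type, so the groups overlapped, with no marker near background on all arrays. The mean deviation of the list was 0.10, 0.31 and -0.02 in null 6, 9 and 11, against -0.13, -0.43 and 0.17 in wild-type 7, 10 and 12. The largest difference, 0.70 for Foxc2, came with 9.48 in wild-type 10, against 11.12 and 11.57 in wild-type 7 and 12 and 11.36 to 11.49 in null. The part of these markers in the collagen and TIMP values was not tested.

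The spread of these genes over the 6 arrays was wide beside that of all genes. Their median range, the highest minus the lowest array, was 0.574 over 45 genes, against 0.400 over 11884 genes. A range over 1 was found for 5 of 45 (11.1%), against 530 of 11884 (4.46%). The 5 were Col1a1 (1.36), Col5a2 (1.21), Mmp14 (1.14), Col14a1 (1.14) and Col3a1 (1.07). Col3a1, Col5a2 and Col14a1 shared an order at both ends, with wild-type 10 highest and wild-type 7 lowest. The mean deviation of the 9 fibrillar collagens from their 6-array average was -0.01, 0.12 and -0.13 in null 6, 9 and 11, against -0.31, 0.18 and 0.15 in wild-type 7, 10 and 12. The extremes of the class thus both lay in wild type. Without wild-type 7 the class median was -0.19, against 0.04 with all arrays.

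**Figure D4:**
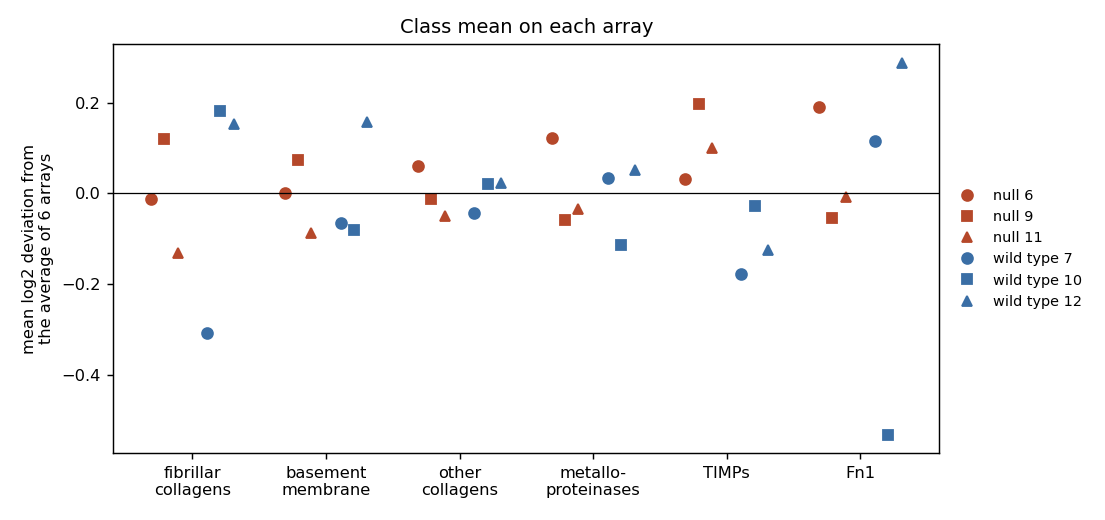
Mean log2 deviation of each class from its average over the 6 arrays (vertical axis), for genes measured on all 6; each point is an array, null red and wild type blue. The mean of the 4 TIMPs is above 0 in all 3 null arrays and below 0 in all 3 wild-type arrays. It joins Timp3 (difference 0.59) and Timp4 (0.34) with Timp1 (-0.03) and Timp2 (-0.02), whose groups overlap, so it does not stand for each gene. The fibrillar collagens run from -0.31 in wild-type 7 to 0.18 in wild-type 10.

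Fibronectin was lowest in a wild-type sample. Fn1 was at 11.95, 11.71 and 11.76 in null, against 11.88, 11.23 and 12.05 in wild type. Wild-type 10 was the lowest array and wild-type 12 the highest, and the difference was 0.09 ± 0.20. Mmp14 was lowest in the same sample. In that sample the somite and sclerotome list was also at its lowest mean deviation (-0.43) and the primitive erythroid list at its highest (0.68). The part of these lists in its Fn1 and Mmp14 values was not tested.

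Among the 22 other collagens, 13 were tested, with 6 differences above 0, 7 below and a median of -0.04. Col23a1, a membrane-spanning collagen shed from the cell surface, was at 8.31, 8.59 and 8.12 in null, against 7.87, 7.97 and 8.06 in wild type. All null samples lay above all wild-type samples, and the difference was 0.37 ± 0.13. A second Col23a1 probe gave 0.26 ± 0.14 with overlapping groups. Col20a1 and Col22a1, collagens that bind at the surface of fibres, differed by -0.15 ± 0.10 and -0.12 ± 0.10. The membrane-spanning Col17a1, which anchors epithelium, differed by -0.08 ± 0.10, and Col26a1 by -0.04 ± 0.13. Col8a1, a short-chain collagen of vessel walls, had null values of 6.23, 6.39 and 6.18, against 6.01, 5.96 and 6.02 in wild type, but was near background on every array and was not tested.

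Chains that assemble into a single collagen molecule were compared across the 6 arrays, in 5 pairs. The pairs were chosen after values had been seen, so the correlations are descriptions and no p-value is given. Col1a1 and Col1a2 had Pearson's r = 0.919 and Spearman's rho = 0.829, and r was 0.896 without the 2 arrays farthest from the median of Col1a1. Col4a1 and Col4a2 had r = 0.933 and rho = 0.714, and r = 0.998 without 2 arrays. Col5a1 and Col5a2 had r = 0.240 and rho = 0.257, and r = -0.04 without 2 arrays. The X-linked pair Col4a5 and Col4a6 had r = 0.278 and rho = 0.371, and r = 0.352 without 2 arrays. Col9a1 and Col9a3, chains of the cartilage collagen type IX, had r = -0.04 and rho = -0.09, and r = -0.85 without 2 arrays. The type I pair and the main type IV pair thus had high values in the same samples, and the other pairs did not. Both chains of a pair were read from the same array and share its normalization, and 3 arrays per genotype are too few for a value within a genotype.

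**Figure D5:**
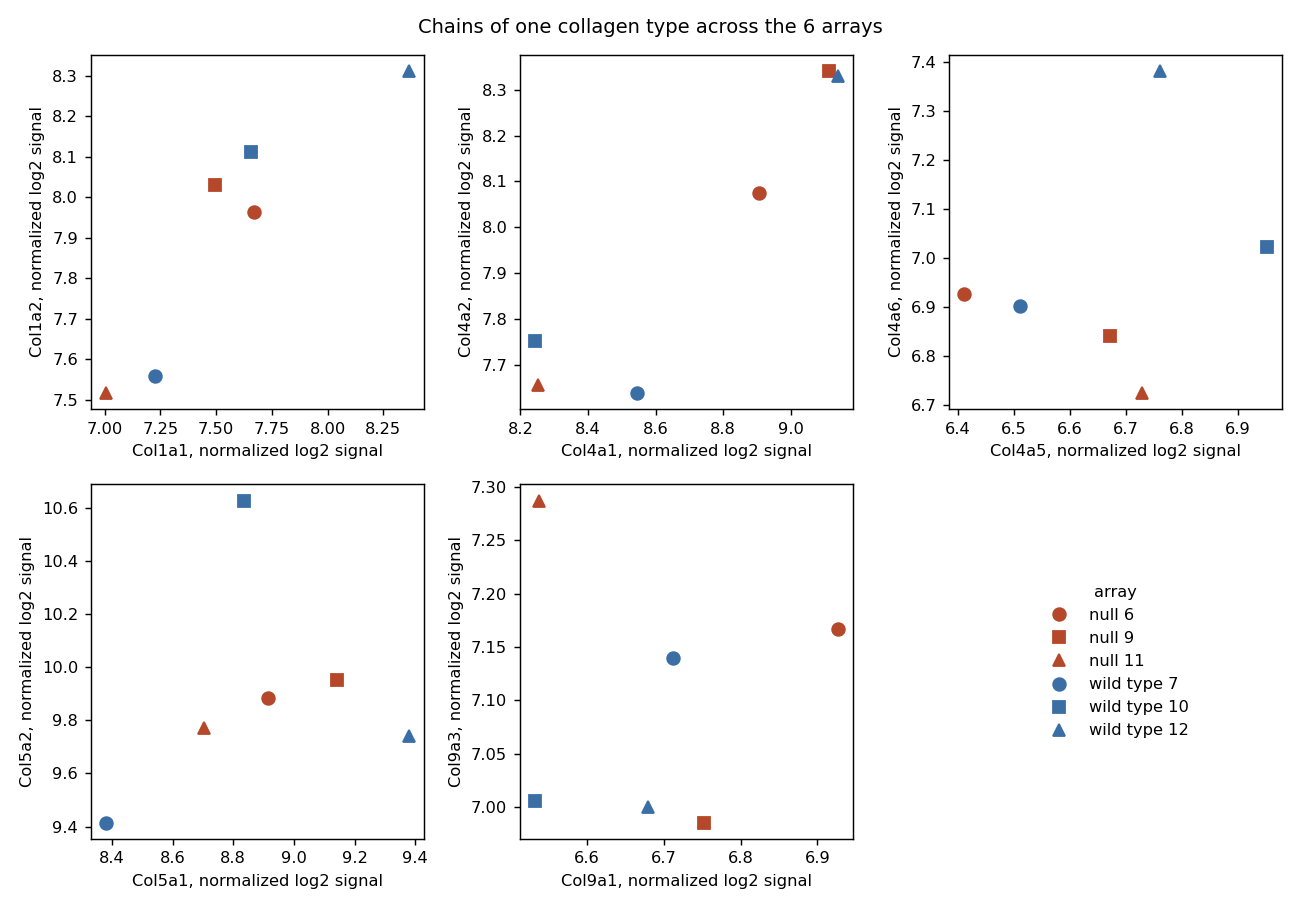
Normalized log2 signal of 1 collagen chain (horizontal axis) against its partner chain (vertical axis) on the 6 arrays, for types I, IV (both networks), V and IX; red points are null and blue wild type. The points lie near a line for Col1a1 with Col1a2 (r = 0.919) and Col4a1 with Col4a2 (r = 0.933), and not for the other pairs.

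The genes that build and handle this matrix were counted from 4 lists, none with a gene past the adjusted threshold. Of the collagen processing genes, 15 of 21 tested had a difference above 0 and 6 below, with a median of 0.10, against 53.5% of all genes above 0. At an unadjusted p under 0.05, 1 of the 21 was higher in null, against 1.91% of all genes. That gene was Pcolce2, an enhancer of procollagen cleavage, at 8.01, 7.90 and 8.04 in null, against 7.86, 7.35 and 7.75 in wild type (0.33 ± 0.14). P4hb, a subunit of the prolyl hydroxylase that stabilises the collagen helix, was at 11.43, 11.60 and 11.36 in null, against 11.27, 11.29 and 11.24 in wild type (0.20 ± 0.10). The groups did not overlap, with null higher, for either gene or for P4ha1. That was 3 of the 20 genes of the list measured on all 6 arrays, against 4.98% of all genes. They did not overlap the other way for Loxl1, a lysyl oxidase that cross-links elastin and collagen, at 7.97, 7.71 and 7.85 in null, against 7.99, 7.97 and 8.04 in wild type (-0.16 ± 0.10). Loxl1 was 1 of the 20, against 3.77% of all genes. Of the other matrix proteins, 12 of 23 differences were above 0 and 11 below, with a median of 0.01. Fbn2, the microfibril protein fibrillin of early embryos, was at 10.24, 10.26 and 9.88 in null, against 9.77, 9.20 and 9.66 in wild type, with no overlap (0.58 ± 0.17). Npnt, an integrin ligand of basement membranes, was at 6.59, 6.61 and 6.70 in null, against 6.31, 6.46 and 6.35 in wild type (0.26 ± 0.09). The Npnt probe was above background on 3 of 3 null and 1 of 3 wild-type arrays. Sparc, a collagen-binding protein, was at 10.77, 10.84 and 10.83 in null, against 10.87, 10.94 and 11.48 in wild type, with no overlap the other way (-0.28 ± 0.16). In this list the groups did not overlap with null higher for Fbn2, Npnt, Vtn and Frem1, 4 of 23, against 4.98% of all genes. The Frem1 probe was above background on 3 of 3 null and 2 of 3 wild-type arrays. Npnt and Frem1 thus entered the test only through the null arrays, where they were higher. The count of 4 is therefore not read as a result about the list. With null lower, Sparc was 1 of 23, against 3.77% of all genes. The matrix receptors had 9 of 18 differences above 0 and a median of -0.01, with Itga6, a laminin receptor chain, at 0.21 ± 0.14 and the proteoglycan Sdc1 at 0.14 ± 0.10. The ADAM, ADAMTS and related proteases and inhibitors had 8 of 18 above 0 and a median of -0.08, with the cathepsin inhibitor Cst3 at 0.41 ± 0.19, fitted without wild-type 10, and Adamts16 at 0.17 ± 0.09. The groups of Adamts16 did not overlap, with null higher, 1 of 17 genes measured on all 6 arrays, against 4.98% of all genes. The groups of the sheddase Adam8 did not overlap either, with null lower and a difference of -0.14 ± 0.09. Adam8 was 1 of the 17, against 3.77% of all genes.

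The notochord and floor plate list had 3 genes tested, with 2 differences above 0 and 1 below. Spon1, a floor plate matrix protein, was at 9.22, 9.65 and 9.24 in null, against 8.46, 9.13 and 8.69 in wild type, and Foxa2, a transcription factor of the floor plate, at 8.32, 8.26 and 7.71 in null, against 7.42, 7.25 and 7.47 in wild type. Nog, a BMP antagonist of the notochord, was at 7.02, 6.92 and 7.18 in null, against 7.12, 6.90 and 7.53 in wild type (-0.14 ± 0.16). The untested Chrd averaged 6.23 in null and 6.43 in wild type, and Noto 6.08 in null and 6.42 in wild type. Spon1 and Foxa2 were chosen after their values were seen, and they are the 2 tested genes of the list with a difference above 0. The summed level of the list was 876 to 1131 in null and 602 to 769 in wild type, which do not overlap. Spon1 was the brightest gene of the list on every array and weighs most in that sum, so the sum does not stand for the whole list. Shh was near background on all arrays. The part of this list in the values of the matrix genes was not tested.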

How the data were processed

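Total RNA of 3 Fkbp8 null and 3 wild-type samples was amplified, labelled with biotin and put on 1-colour CodeLink arrays, per the labels' protocols. The deposited intensity of each spot was quantified by the CodeLink software per the file headers and was already background-subtracted, as shown by 38 to 70 negative spots on each array. The authors' value table, also deposited, holds the software's median-scaled intensity times a constant factor per array (1.01 to 1.02), with missing and negative spots at 0. Its column median is 1.036 in each of the 6 samples, it is linear and not centred by gene, and it served as an alternative. The submitters' summary files of control spots were not used. The file headers give 1 quantification session for the 6 arrays, and no batch could be tested.

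Values below 0 were set to 0, and the log2 of intensity plus 50 was quantile normalized over 34967 transcript spots. The offset compresses differences of dim probes. Between 391 and 543 spots per array with an irregular, contamination or defect flag were dropped; saturated spots stayed in. The detection rule left 21243 probes, which limma 3.58.1 (R 4.3.3; lmFit, then eBayes) compared as null minus wild type, two-sided, with p-values adjusted by Benjamini-Hochberg over all of them. A gene was read from its tested probe of highest mean signal; 17 of the 78 genes had 2 probes. Summed levels add up the normalized values of a list's genes, returned to the linear scale less the offset. Of the spots, 21615 had 1 symbol in the platform annotation, 681 had several and 12671 had none. Of the spots with 1 symbol, 21487 were matched in the RefSeq table of GRCm38.p6. Mmp15 and Col12a1 are named on the array by accession or description only and were not counted. An alternative added after seeing the data is not reported here. For a gene near background throughout a genotype, the fold is a lower bound: the bright group's mean is set against the higher, per array, of the signal of the dim probe and of the faintest spot above background. The limma step was tested on simulated data.

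The members and lists were chosen with earlier results of these data known. Genes were named by a rule: a fixed set of main chains, proteases and inhibitors; in each class the smallest p-values and the highest signals; members whose groups did not overlap; and in each pathway list the smallest p-values. Other genes given with values were named after their values were seen. Alternatives changed the offset, the normalization, the filters, the prior, array weights, the probe and symbol rules and left out each array.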

Additional observations from a re-analysis of the deposited data

How the results depend on the processing

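With 3 arrays per genotype, the limma test called 0 of the 48 tested matrix and protease genes, with all arrays and under every alternative run, and 4 had an unadjusted p under 0.05. No paired analysis was possible because the 2 genotypes share no sample numbers. Probes near background carry only a bound or no test, which limits the metalloproteinases most. The offset sets the size of dim differences: Fkbp8 was at -2.89 with intensities floored at 1 and between -1.98 and -1.47 when each array was left out.

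The 4 genes with an unadjusted p under 0.05, all higher in null, became 2 with median scaling, with the software's normalized intensity and with the authors' value table, and 1 to 6 when each array was left out. They became 3, without Timp4, where a probe had to be above background on all 6 arrays. Without null 9 the count was 1 and without null 11 it was 2. The shares over all genes under these alternatives are not given, so a change in these counts is not read as a result about the matrix genes. Genes lower in null appeared at that level on leaving out 1 wild-type array: Col1a1, Col2a1 and Col4a6 among 6 genes without wild-type 7, and Lama5 among 5 without wild-type 10. Timp3 was among the genes higher in null each time an array was left out. The 5 genes whose groups did not overlap became 3 with median scaling, 2 with the normalized intensity and 2 with the value table. They became 7 to 14 when each array was left out, where 2 arrays are set against 3 and groups separate more easily. The shares over all genes under these settings were not counted, so these counts are not read as a result about the matrix genes. The fibrillar median ran from -0.19 (without wild-type 7) to 0.063 (without wild-type 10) when each array was left out. The median of the other collagens ran from -0.12 (without wild-type 7) to 0.019 (without wild-type 12).

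Of 590 values of 35 named genes under the alternatives, 28 had the opposite sign from the main value, spread over 15 genes, and none of them passed the threshold. Timp3, Timp4, Nid1, Col23a1, Lama1 and Lama3 kept their sign throughout. Timp3 ran from 0.50 to 0.72 when each array was left out. With array weights, Col5a2 was at 0.034, Mmp14 at -0.076 and Timp1 at 0.025, and with every spot kept Lamc1 was at -0.047. The others changed sign on leaving out 1 array, and the cause was not tested: Col1a2 ran from -0.38 to 0.0022, Col26a1 from -0.16 to 0.064, Col3a1 from -0.013 to 0.52, Col4a1 from -0.086 to 0.37, Col4a2 from -0.042 to 0.33, Col5a1 from -0.19 to 0.31, Col5a2 from -0.32 to 0.29, Fn1 from -0.16 to 0.25, Hspg2 from -0.21 to 0.075, Lamb1 from -0.015 to 0.041, Lamc1 from -0.049 to 0.12, Mmp14 from -0.26 to 0.31, Mmp2 from -0.057 to 0.10, Timp1 from -0.14 to 0.094 and Timp2 from -0.073 to 0.0097.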
